A study of Mus musculus with 6 samples.

Results

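Slfn1, Slfn2, Slfn4, Slfn5, Slfn8 and Slfn9 are the 6 schlafen family genes described here, out of 32285 genes in the deposited matrices. They were chosen by symbol, and their UMIs (unique molecular identifiers, which count captured RNA molecules) were summed per library and cell class. The libraries are 10x Genomics single-cell RNA libraries of lung cells held back by beads against CD45, the surface protein of blood cells. The 4 groups were NOS1 KO mice given LPS (2 libraries), WT mice given LPS (2 libraries), NOS1 KO mice given vehicle (1 library) and WT mice given vehicle (1 library). LPS is a component of the outer membrane of Gram-negative bacteria. It was injected into the peritoneal cavity at 10 mg/kg, 4 h before the lungs were taken. NOS1 is the neuronal nitric oxide synthase, the WT strain is written C65BL6 in the labels, and the labels give neither the age of the mice nor whether the LPS libraries of a genotype came from separate animals. P-values therefore set differences between groups only against how far libraries of a group lie apart, and that distance may be technical.

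Schlafen genes occur in mammals and lie side by side in the mouse genome, and many of them are induced by type I interferon. They fall into short, intermediate and long forms, which share an amino-terminal core, and the long forms carry a helicase-like carboxy-terminal part. Slfn1 and Slfn2 are short forms. Forced expression of Slfn1 halts the growth of mouse thymocytes, and loss of Slfn2 function leaves mouse T cells and monocytes unable to stay quiescent. Slfn4 is an intermediate form known from mouse macrophages and from suppressive myeloid cells of the infected stomach. Slfn5, Slfn8 and Slfn9 are long forms, and the human long form SLFN13 cleaves transfer and ribosomal RNA.

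The 6 libraries held 64428 barcodes and between 55361477 and 115225284 UMIs each. After filters on genes, mitochondrial UMIs and doublets, 56341 cells in 66 clusters remained. Removing 12 clusters with markers of several classes left 52302 cells, of which 50062 fell into 14 classes named from marker genes. Such names mean neutrophil-like, B cell-like and so on, and 12 classes had at least 30 cells in every library and were tested. All markers of neutrophils, alveolar macrophages, B cells, T cells, NK cells and the 3 classes without CD45 (endothelial, stromal and epithelial cells) were highest in their own class, while 6 of 8 were for classical monocytes, 7 of 9 for nonclassical monocytes, 7 of 9 for interstitial macrophages and 7 of 10 for dendritic cells. Neutrophils made up 39.2% and 38.5% of KO LPS cells and 49.1% and 50.2% of WT LPS cells, against 6.16% of KO vehicle cells and 6.15% of WT vehicle cells. Different clusters held most LPS cells and most vehicle cells of every tested class but stromal and epithelial cells: 1 cluster held most vehicle neutrophils and 7 others held most LPS neutrophils. Some clusters were shared, such as number 18 of the B cells, with 348 and 232 KO LPS, 105 and 99 WT LPS, 277 KO vehicle and 140 WT vehicle cells. Nos1 was at or near 0 in every library, KO and WT alike, so its counts check no genotype.

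The sex marks of the cells differed between the groups and were alike in replicates, so they cannot be told apart from the groups. Xist, made only from the inactive X chromosome of female cells, was the only mark in 30.5% and 31.5% of cells of the KO LPS libraries, where 22.0% and 19.8% of cells carried Y-linked UMIs only. In the WT LPS libraries Xist alone marked 48.5% and 45.8% of cells and Y-linked UMIs alone marked 0.0431% and 0.00969%. The KO vehicle library held Xist cells (75.5%) and the WT vehicle library held Y-marked cells (43.9%). The KO LPS libraries thus hold cells of both marks, the labels do not mention it, and comparisons of KO with WT are made over all cells and over cells with Xist and no Y-linked UMI.

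The 6 genes lie within 238868 bases of mouse chromosome 11 (mm10, chr11:82951349-83190216), in the order Slfn5, Slfn9, Slfn8, Slfn2, Slfn1 and Slfn4. Slfn9 and Slfn8 are on the minus strand and the other 4 are on the plus strand. Slfn8 and Slfn9 are close paralogs, so reads in shared stretches may have been dropped or misplaced between them. The antisense gene Slfn5os overlaps Slfn5 and stayed at or below 3.13 CPM (UMIs scaled to an equal total in each class and library) in every class and library. Further along the chromosome come Slfn3 and Slfn14, which are not among the 6.

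**Figure D1:**
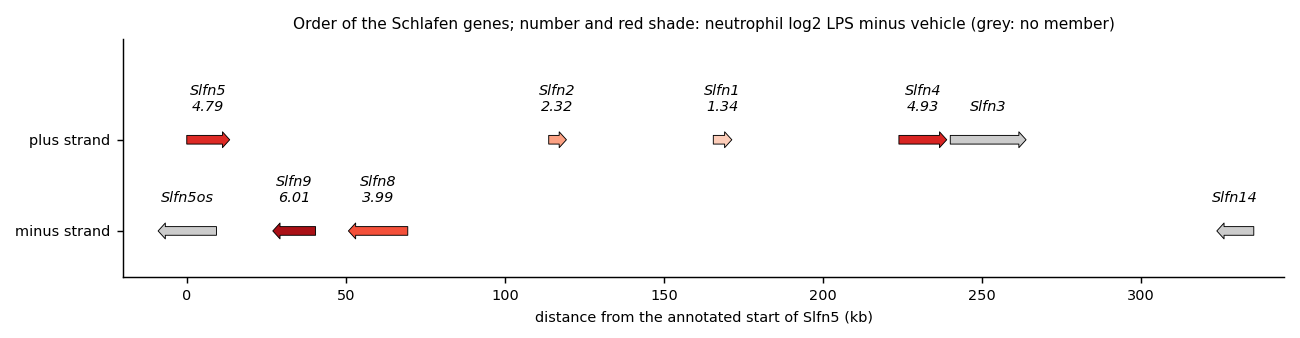
Map of the schlafen locus with distance from the start of Slfn5 (kb) on the horizontal axis, 1 arrow per gene pointing along its strand, and red shade and number giving the neutrophil log2 difference, LPS minus vehicle (grey for genes that are not among the 6). Slfn9 has the largest value (6.01) and Slfn1 the smallest (1.34, which is -0.22 by library size alone).

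Promoters of the members are shown because 3 of the 6 share a short interferon-type motif. Each is the RefSeq window of 300 bases, from 250 before the start to 50 after it, on GRCm38.p6 and read along the gene's own strand; for Slfn5 that start lies inside the annotated gene span given above. The core of the interferon-stimulated response element, taken as GAAA followed by any 2 bases and again GAAA, was searched on both strands. It was present in Slfn5 (chr11:82951852-82952151, plus strand, bases -155 to -146), Slfn8 (chr11:83020761-83021060, minus strand, bases -48 to -39) and Slfn9 (chr11:82991781-82992080, minus strand, bases -45 to -36). Over all 32851 promoters of the table, 3.44% hold this core. Slfn8 and Slfn9 hold the same 10 matched bases. The table gives Slfn8 a second promoter (chr11:83020673-83020972), counted from which they lie at bases -136 to -127. The Slfn4 promoter (chr11:83174936-83175235, plus strand) is shown beside them as one without it. Capitals mark the core and, in Slfn9, also an earlier run that matches GGG, any 5 bases and CC, a loose NF-kB pattern that 50.8% of all promoters hold and that does not overlap the core.

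Slfn5: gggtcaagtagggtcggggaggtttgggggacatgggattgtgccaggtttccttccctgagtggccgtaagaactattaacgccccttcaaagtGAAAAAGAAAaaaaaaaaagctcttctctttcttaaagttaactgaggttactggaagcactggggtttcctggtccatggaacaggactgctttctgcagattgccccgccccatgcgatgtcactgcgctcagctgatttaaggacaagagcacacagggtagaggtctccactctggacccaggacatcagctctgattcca
Slfn8: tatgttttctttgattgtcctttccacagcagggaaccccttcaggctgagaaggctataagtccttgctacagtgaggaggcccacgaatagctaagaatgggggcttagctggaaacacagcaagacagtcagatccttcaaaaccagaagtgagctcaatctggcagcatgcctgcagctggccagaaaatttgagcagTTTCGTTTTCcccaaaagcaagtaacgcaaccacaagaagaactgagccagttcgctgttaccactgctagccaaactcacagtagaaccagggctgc
Slfn9: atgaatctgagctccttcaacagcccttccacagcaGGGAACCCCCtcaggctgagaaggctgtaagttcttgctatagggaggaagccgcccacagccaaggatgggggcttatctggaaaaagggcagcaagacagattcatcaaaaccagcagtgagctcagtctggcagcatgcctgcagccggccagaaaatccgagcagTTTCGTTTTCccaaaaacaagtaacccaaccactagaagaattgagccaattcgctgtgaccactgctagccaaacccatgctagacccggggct
Slfn4: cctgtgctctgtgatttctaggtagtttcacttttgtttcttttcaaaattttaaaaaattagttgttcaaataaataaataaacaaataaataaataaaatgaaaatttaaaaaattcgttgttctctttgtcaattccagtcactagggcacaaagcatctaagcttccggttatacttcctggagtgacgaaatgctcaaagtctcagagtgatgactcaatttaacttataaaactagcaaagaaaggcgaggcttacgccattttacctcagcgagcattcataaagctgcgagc

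A match describes letters and not a bound site. The gamma-activated site, TTCNNNGAA, was in none of the 6 members and in 8.3% of all promoters. The NF-kB pattern was also in the Slfn1 promoter, at bases -43 to -34.

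LPS was followed by higher schlafen counts in nearly every class. Of 72 tests of a member in a class, 68 rose, 1 fell and 3 did not pass. Over all genes and the same 12 classes, 26.9% of tests rose and 24.5% fell. The test was edgeR's quasi-likelihood test on summed UMIs, averaging the LPS minus vehicle difference over both genotypes, with Benjamini-Hochberg adjusted p below 0.05 as the threshold. Its spread comes from the 2 pairs of LPS libraries, and each single vehicle library is assumed to vary like them. The LPS libraries lay wholly above the vehicle libraries for 71 of the 72 and wholly below for 1. The share of all genes that part in this way was not counted, so nothing particular to the members is read from it. Levels are CPM after TMM scaling, which corrects library sizes for a few dominant genes, and changes are log2 ± standard error (SE). The 3 that did not pass were Slfn1, Slfn4 and Slfn8 in epithelial cells, a class of 30 to 65 cells a library.

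**Figure D2:**
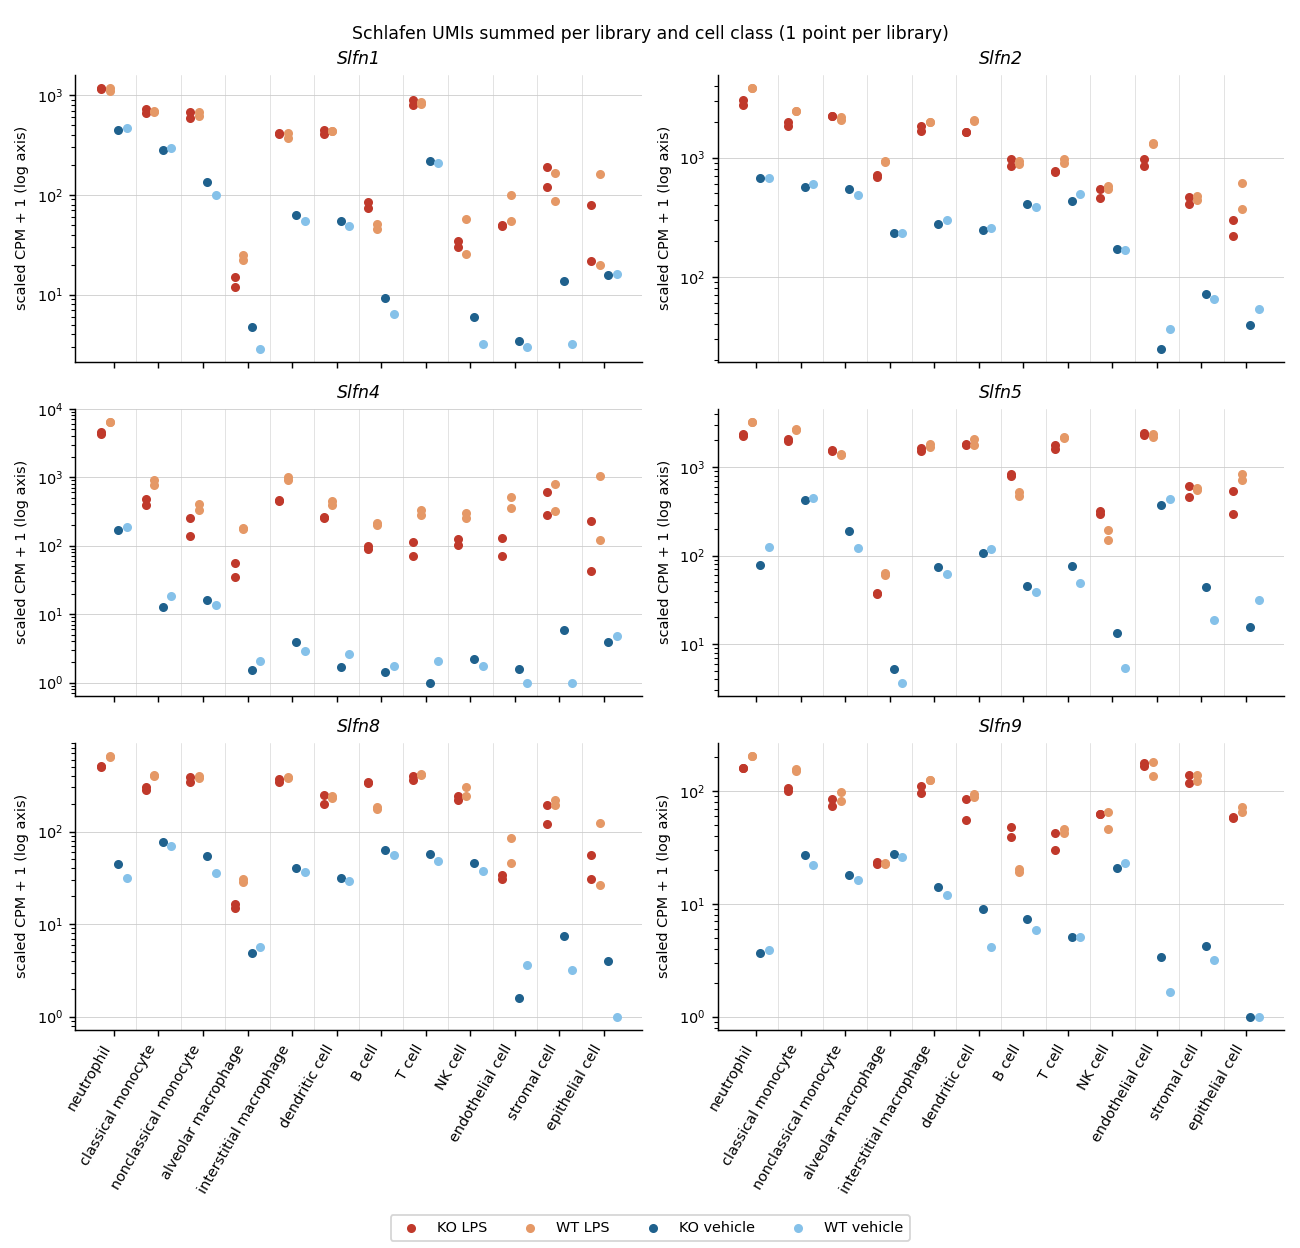
Level of each schlafen gene (TMM-scaled CPM + 1, log axis, 1 panel per gene) by cell class on the horizontal axis, 1 point per library, with KO LPS, WT LPS, KO vehicle and WT vehicle side by side. LPS points stand above vehicle points for 71 of 72 combinations of gene and class, and Slfn9 in alveolar macrophages is the exception. No such count was made over all genes.

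Neutrophils had all 6 members after LPS, and Slfn4 and Slfn5 were far above their vehicle levels. Slfn4 stood at 4341 and 4495 CPM in KO LPS neutrophils, 6353 and 6465 CPM in WT LPS neutrophils, 166 CPM in KO vehicle neutrophils and 183 CPM in WT vehicle neutrophils. Slfn5 stood at 2260 and 2337 CPM in KO LPS, 3227 and 3251 CPM in WT LPS, 77.9 CPM in KO vehicle and 125 CPM in WT vehicle neutrophils. All LPS libraries were far above both vehicle libraries, and both KO LPS libraries were below both WT LPS libraries. Slfn4 rose by 4.93 ± 0.06 (adjusted p = 1.5e-21), Slfn5 by 4.79 ± 0.06, Slfn8 by 3.99 ± 0.07 and Slfn2 by 2.32 ± 0.05. Slfn9 had 5 UMIs in each vehicle library, against 1526 to 3915 in the LPS libraries, and rose by 6.01 ± 0.14. In these cells 31.1% of all genes tested rose and 21.9% fell.

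Slfn1 in neutrophils depended on how libraries were scaled. It stood at 1141 and 1191 CPM in KO LPS, 1167 and 1108 CPM in WT LPS, 448 CPM in KO vehicle and 465 CPM in WT vehicle neutrophils, a rise of 1.34 ± 0.05 with TMM scaling that turned to -0.22 (adjusted p = 0.00013) when library size alone was used. The median gene of neutrophils moved with it, at 0.32 with TMM scaling and -1.23 with library size alone, so that Slfn1 was 1.01 above the median gene with TMM scaling and 1.00 above it by library size alone. The other 5 members were above vehicle under both, with Slfn2 at 0.76, Slfn8 at 2.43, Slfn5 at 3.23, Slfn4 at 3.37 and Slfn9 at 4.46 by library size alone. Of the neutrophil genes called, 3616 rose and 2549 fell with TMM scaling, against 1116 and 6240 by library size alone. Per cell, Slfn1 had 5.49 and 4.16 UMIs in KO LPS, 4.90 and 3.36 in WT LPS, 1.94 in KO vehicle and 1.49 in WT vehicle neutrophils, whose median depths were 4858, 3533, 5314, 3896, 2193 and 1474 UMIs in that order. In the 11 classes other than neutrophils no member changed direction between the scalings. There the median gene lay between -0.64 and 0.01 by library size alone.

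Single neutrophils carried several members at once. After thinning each cell to 1000 UMIs, 84.2% and 84.9% of KO LPS neutrophils and 83.2% and 84.7% of WT LPS neutrophils had UMIs of at least 3 members, against 18.0% of KO vehicle and 23.1% of WT vehicle neutrophils. Among the 9 neutrophil clusters with at least 30 cells in each of the 4 LPS libraries, the one led by Ltf, Camp and Ngp, secondary granule genes of young neutrophils, had the lowest level of 5 of the 6 members. There Slfn4 stood at 2516 and 2656 CPM (library size alone) in KO LPS and 2707 and 2606 CPM in WT LPS cells. Slfn4 was highest in the cluster led by Ptgs2, Ifitm1 and Asprv1, at 4250 and 4177 CPM in KO LPS and 5004 and 5185 CPM in WT LPS cells. Slfn2 was highest in the cluster led by the chemokine genes Ccl4 and Ccl3, at 2816 and 3189 CPM in KO LPS and 2870 and 2806 CPM in WT LPS cells. None of the 6 genes was used to build the clusters.

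Slfn1 after LPS was highest in neutrophils, T cells and monocytes, lower in interstitial macrophages (375 to 414 CPM) and dendritic cells (405 to 446 CPM), and under 100 CPM in B cells, NK cells, endothelial cells and alveolar macrophages. In T cells it stood at 797 and 890 CPM in KO LPS, 822 and 862 CPM in WT LPS, 220 CPM in KO vehicle and 210 CPM in WT vehicle libraries, a rise of 1.97 ± 0.08 (adjusted p = 7.4e-128). In classical monocytes it stood at 662 and 723 CPM in KO LPS, 674 and 690 CPM in WT LPS, 283 CPM in KO vehicle and 297 CPM in WT vehicle libraries, a rise of 1.25 ± 0.06. The 2 genotypes overlapped after LPS in both classes. B cells had at most 83.4 CPM after LPS and at most 8.20 CPM in vehicle libraries. Across the classes that passed, its rise was between 1.25 and 4.76.

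Slfn2 had its lowest vehicle level in endothelial cells and its widest difference there. Endothelial cells held 853 and 972 CPM in KO LPS and 1333 and 1297 CPM in WT LPS libraries, against 24.0 CPM in the KO vehicle and 35.3 CPM in the WT vehicle library. Its rise there, 5.23 ± 0.12 (adjusted p = 8.2e-11), was the largest of the 12 classes. T cells showed the smallest, 0.88 ± 0.07, with 760 and 765 CPM in KO LPS, 892 and 978 CPM in WT LPS, 432 CPM in KO vehicle and 490 CPM in WT vehicle libraries. All LPS libraries were still above both vehicle libraries. B cells rose by 1.20 ± 0.08 and classical monocytes by 1.89 ± 0.05.

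Slfn4 was a neutrophil gene before and after LPS. Neutrophils held 90.3% and 89.9% of its UMIs in KO LPS libraries and 88.6% and 87.9% in WT LPS libraries, against 79.0% in the KO vehicle and 78.4% in the WT vehicle library. After thinning, 93.5% and 93.6% of KO LPS and 93.0% and 94.2% of WT LPS neutrophils had a Slfn4 UMI, against 22.5% of KO vehicle and 29.0% of WT vehicle neutrophils. In B cells, which are not known for it, the shares were 9.10% and 6.89% in KO LPS, 17.8% and 16.7% in WT LPS and under 0.1% in both vehicle libraries. In alveolar macrophages they were 4.84% and 2.70% in KO LPS and 12.7% and 13.9% in WT LPS libraries, and before thinning 37.4% and 21.2% in KO LPS and 73.5% and 65.6% in WT LPS libraries. Before thinning the B cell shares were 23.7% and 14.8% in KO LPS and 51.1% and 40.1% in WT LPS libraries. B cell median depths were 2888 and 2209 UMIs in KO LPS and 4149 and 2994 UMIs in WT LPS libraries, and those of alveolar macrophages were 13527 and 9943 UMIs in KO LPS and 14906 and 11030 UMIs in WT LPS libraries. The order of the 2 classes turned with thinning, and nothing is read from it.

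**Figure D3:**
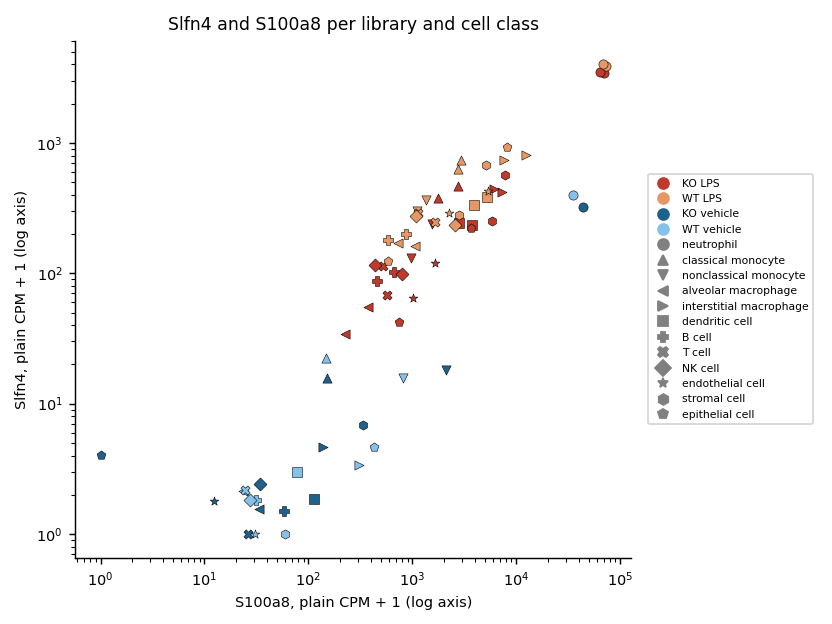
Slfn4 (vertical) against S100a8 (horizontal), both as CPM + 1 by library size alone on log axes, with 1 point per class and library, colours for the 4 groups and shapes for the classes. Neutrophils are at the upper right, every other LPS point is above every other vehicle point on the Slfn4 axis, and vehicle nonclassical monocytes reach S100a8 levels of LPS points.

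Outside neutrophils Slfn4 was set beside S100a8, a calcium-binding protein gene that makes up much of neutrophil RNA. In alveolar macrophages S100a8 stood at 371 and 224 CPM (library size alone) in KO LPS and 1050 and 731 CPM in WT LPS libraries. It stood, scaled alike, at 32.3 CPM in KO vehicle and 22.5 CPM in WT vehicle libraries. The Slfn4 values that follow are TMM-scaled. Slfn4 in the same cells stood at 54.2 and 34.1 CPM in KO LPS, 172 and 179 CPM in WT LPS, 0.510 CPM in KO vehicle and 1.07 CPM in WT vehicle libraries. Both were higher in WT LPS than in KO LPS libraries. Per 100 S100a8 UMIs there were 4.90, 5.53, 5.36 and 5.91 Slfn4 UMIs in LPS neutrophils (KO LPS, then WT LPS), 14.7, 15.0, 15.3 and 23.1 in alveolar macrophages, 15.2, 18.7, 31.0 and 22.8 in B cells and 21.7, 16.9, 23.1 and 24.9 in classical monocytes. Lcn2, a neutrophil granule gene, was set beside Slfn4 in the same way. Per 100 Lcn2 UMIs there were 9.21 to 10.5 Slfn4 UMIs in LPS neutrophils. The range was 17.6 to 23.6 in LPS alveolar macrophages and 20.8 to 32.2 in LPS B cells. The part of free neutrophil RNA in the Slfn4 counts of these classes was not tested. Interstitial macrophages had 447 and 461 CPM of Slfn4 in KO LPS, 1003 and 906 CPM in WT LPS, 2.86 CPM in KO vehicle and 1.88 CPM in WT vehicle libraries. Epithelial cells of WT LPS replicate 2 reached 1028 CPM of Slfn4 (TMM-scaled) together with 8087 CPM of S100a8 (library size alone). With 1 UMI in both vehicle libraries together, endothelial Slfn4 was 511 times as high after LPS (95% counting interval 91.6 to 20180).

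Slfn5 rose in all 12 classes, by 2.40 to 4.97. T cells had 1578 and 1752 CPM in KO LPS, 2154 and 2114 CPM in WT LPS, 75.4 CPM in KO vehicle and 48.0 CPM in WT vehicle libraries, a rise of 4.97 ± 0.09 with an adjusted p written as 0. Dendritic cells had 1781 and 1797 CPM in KO LPS, 1756 and 2051 CPM in WT LPS, 105 CPM in KO vehicle and 118 CPM in WT vehicle libraries, a rise of 4.05 ± 0.10. Endothelial cells had the highest vehicle level after classical monocytes, with 2323 and 2441 CPM in KO LPS and 2159 and 2367 CPM in WT LPS libraries, against 370 CPM in KO vehicle and 435 CPM in WT vehicle libraries. Alveolar macrophages held least after LPS, 35.8 and 36.8 CPM in KO LPS and 59.8 and 62.9 CPM in WT LPS libraries. The neutrophil share of all Slfn5 UMIs was 48.2% and 44.3% in KO LPS and 57.9% and 58.0% in WT LPS libraries, against 4.14% in the KO vehicle and 7.79% in the WT vehicle library. Of all cells, neutrophils were 39.15% and 38.52% in KO LPS, 49.09% and 50.24% in WT LPS, 6.164% in KO vehicle and 6.147% in WT vehicle libraries.

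Slfn8 and Slfn9, the neighbouring long forms, parted in alveolar macrophages. Slfn9 had 21.8 and 22.7 CPM in KO LPS, 21.6 and 21.8 CPM in WT LPS, 26.8 CPM in KO vehicle and 24.9 CPM in WT vehicle libraries there, a fall of -0.24 ± 0.07 (adjusted p = 0.0069). It is the only one of the 72 that fell. It did not pass with DESeq2 (-0.22, adjusted p = 0.28) and was 0.74 when doublets were kept and cells were clustered anew. Nor did it pass without the KO vehicle library (-0.20), a fit that compares WT LPS with WT vehicle only. Slfn8 in the same cells had 13.8 and 15.4 CPM in KO LPS, 27.6 and 29.9 CPM in WT LPS, 3.91 CPM in KO vehicle and 4.62 CPM in WT vehicle libraries, a rise of 2.26 ± 0.12. In endothelial cells Slfn9 had 177 and 166 CPM in KO LPS, 135 and 182 CPM in WT LPS, 2.40 CPM in KO vehicle and 0.665 CPM in WT vehicle libraries, from 5 vehicle UMIs in all. NK cell Slfn9, already at 19.7 CPM in the KO vehicle and 22.2 CPM in the WT vehicle library, rose by 1.47 ± 0.20. T cell Slfn8 rose by 2.96 ± 0.10 and dendritic cell Slfn8 by 2.96 ± 0.14.

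KO LPS libraries differed from WT LPS libraries in 32 of the 72 tests, 5 higher in KO and 27 lower. Over all genes 8.26% of tests were higher and 9.83% were lower. The direction differed by class: B cells accounted for 4 of the 5 higher calls, and Slfn4 for 10 of the 27 lower ones. The scaling mattered here as well, since library size alone moved the neutrophil members up by 0.35 and gave 7 higher and 21 lower calls, and over all genes 18786 higher and 6684 lower calls against 10017 and 11920 with TMM scaling. Slfn4 was lower in KO in the same number of classes, 10 of 12, under both.

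**Figure D4:**
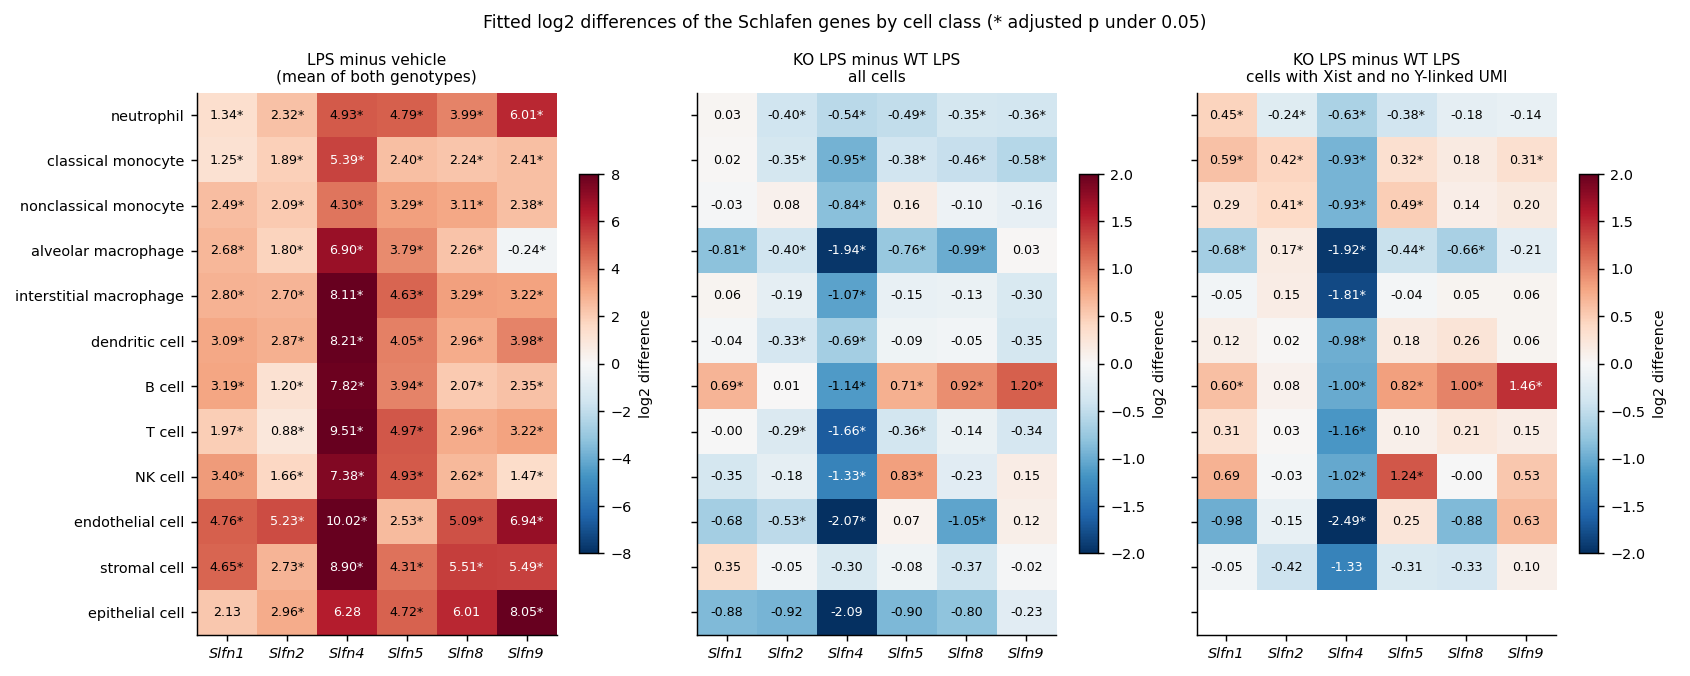
Fitted log2 differences by gene (columns) and cell class (rows), with colour and number giving the value and an asterisk an adjusted p under 0.05, for LPS minus vehicle (left), KO LPS minus WT LPS over all cells (middle) and over cells with Xist and no Y-linked UMI (right, epithelial cells not fitted). Slfn4 is below 0 in every fitted class of the middle and right panels, and B cell Slfn1, Slfn5, Slfn8 and Slfn9 are above 0 in both.

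B cells had more Slfn1, Slfn5, Slfn8 and Slfn9 in KO LPS than in WT LPS libraries. Slfn8 had 341 and 339 CPM in KO LPS, 185 and 173 CPM in WT LPS, 63.0 CPM in KO vehicle and 55.1 CPM in WT vehicle libraries. Slfn5 had 791 and 836 CPM in KO LPS, 476 and 515 CPM in WT LPS, 44.6 CPM in KO vehicle and 38.0 CPM in WT vehicle libraries. Neither gene's LPS groups overlapped. The clusters behind the class differed in share: cluster 5 held 595 and 501 KO LPS and 490 and 564 WT LPS B cells, cluster 18 held 348 and 232 against 105 and 99, and cluster 31 held 302 and 201 against 117 and 129. Within cluster 5 Slfn8 stood at 280 and 269 CPM (library size alone) in KO LPS and 141 and 131 CPM in WT LPS cells, within cluster 18 at 412 and 383 CPM in KO LPS and 262 and 240 CPM in WT LPS cells, and within cluster 31 at 494 and 536 CPM in KO LPS and 307 and 303 CPM in WT LPS cells. KO LPS lay above WT LPS in each of the 3. The differences were 0.92 ± 0.09 for Slfn8 (adjusted p = 9.7e-14), 0.71 ± 0.08 for Slfn5, 0.69 ± 0.12 for Slfn1 and 1.20 ± 0.17 for Slfn9, while Slfn2 did not pass (0.01 ± 0.09) and Slfn4 was lower (-1.14 ± 0.10). Of all B cell genes tested, 17.9% were higher in KO. NK cell Slfn5 was higher too (0.83 ± 0.14). It stood at 296 and 314 CPM in KO LPS against 194 and 148 CPM in WT LPS libraries. The difference was -0.31 when doublets were kept and cells were clustered anew.

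Neutrophils, classical monocytes and alveolar macrophages had 5 of 6 members lower in KO each, 15 of the 27 lower calls. In these classes 16.9%, 19.6% and 19.4% of all genes were lower in KO. KO LPS and WT LPS cells were spread unequally over clusters: classical monocyte cluster 21 held 510 and 405 KO LPS against 22 and 41 WT LPS cells, neutrophil cluster 12 held 697 and 485 against 98 and 139, and alveolar macrophage cluster 26 held 338 and 221 against 36 and 48. In classical monocyte cluster 7, with 251 and 197 KO LPS and 719 and 737 WT LPS cells, Slfn2 stood at 2328 and 2559 CPM (library size alone) in KO LPS and 1947 and 1977 CPM in WT LPS cells, and Slfn4 at 500 and 548 CPM in KO LPS and 706 and 827 CPM in WT LPS cells. By library size alone Slfn2 in KO LPS cells of that cluster was thus above WT LPS, and Slfn4 was below it. Over the whole class Slfn2 differed by -0.35 with TMM scaling and -0.10 by library size alone. Slfn4 differed by -0.95 and -0.69. What part scaling or the spread over clusters has in the contrast with the class calls was not tested. In alveolar macrophage cluster 2 Slfn4 stood at 43.1 and 36.3 CPM in KO LPS and 164 and 163 CPM in WT LPS cells. Alveolar macrophage Slfn4 differed most among them, by -1.94 ± 0.10, followed by Slfn8 (-0.99 ± 0.10), Slfn1 (-0.81 ± 0.12), Slfn5 (-0.76 ± 0.07) and Slfn2 (-0.40 ± 0.06). S100a8 in the same cells was lower in KO LPS libraries as well, and its part in these differences was not tested. Neutrophil Slfn4 and Slfn5 differed by -0.54 ± 0.04 and -0.49 ± 0.04 with TMM scaling and by -0.19 and -0.15 by library size alone, where both still passed. Slfn2, Slfn8 and Slfn9 in neutrophils no longer passed by library size alone, at -0.05, -0.00 and -0.01, and Slfn1, at 0.03 with TMM scaling, was called higher in KO at 0.38.

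Restricting the fit to cells with Xist and no Y-linked UMI, an alternative chosen after seeing the data, changed these calls in part. The WT vehicle library, which is Y-marked, was left out of that fit. Of 66 tests in 11 classes, 13 were higher in KO and 15 lower. Over all genes in those cells 4.6% of tests were higher and 4.96% lower. All 5 higher calls remained. Of the 27 lower calls 15 remained, 8 did not pass and 4 became higher. Slfn4 remained lower in 10 of 11 classes, by -0.63 ± 0.06 in neutrophils, -0.93 ± 0.07 in classical monocytes and -1.92 ± 0.08 in alveolar macrophages. The 4 that turned were Slfn2 (0.42), Slfn5 (0.32) and Slfn9 (0.31) in classical monocytes and Slfn2 in alveolar macrophages (0.17). T cell Slfn5 was -0.36 over all cells and 0.10, not passing, over Xist cells.

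**Figure D5:**
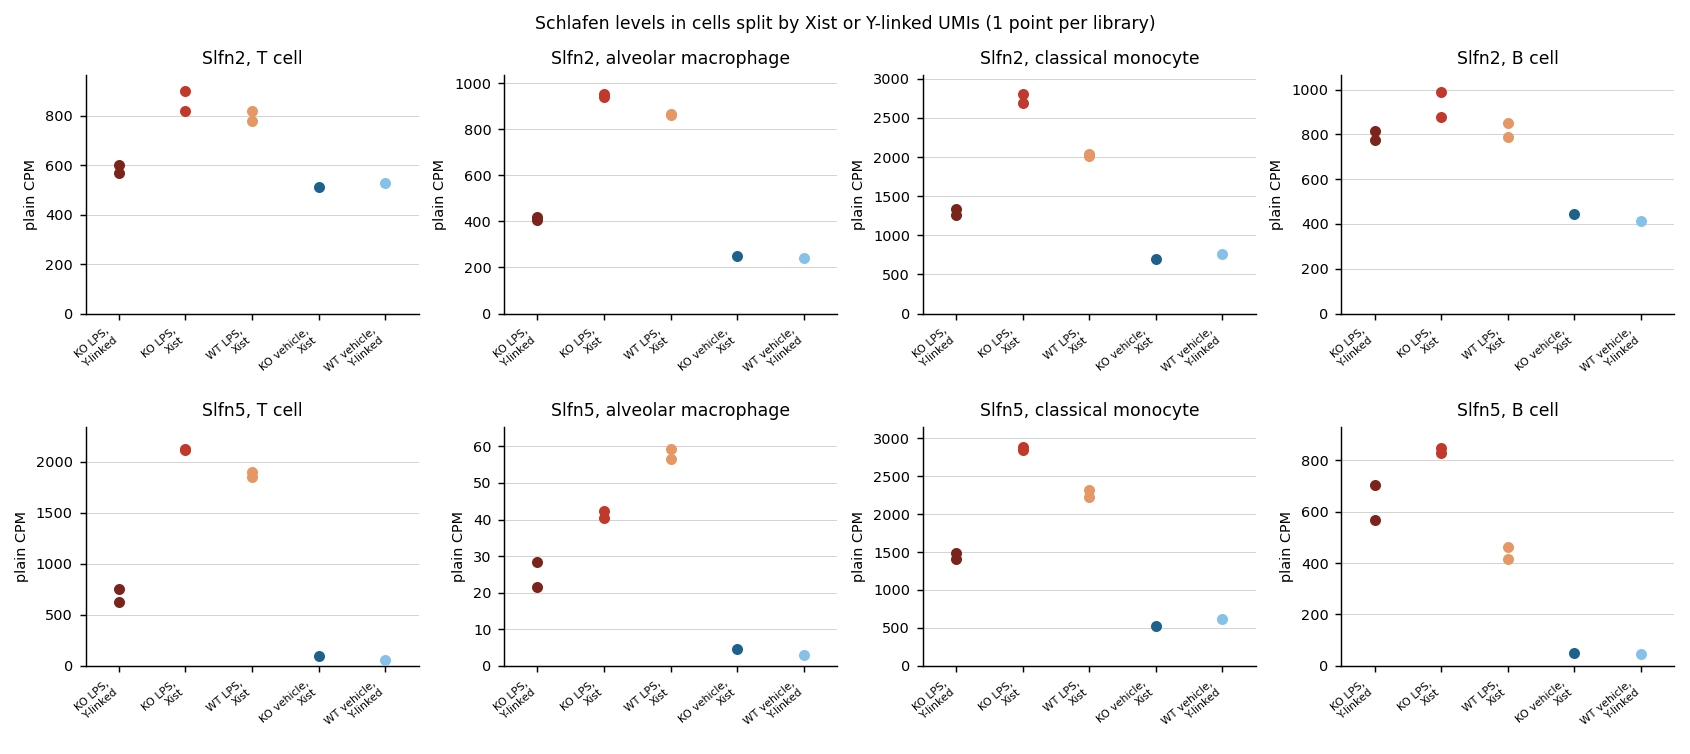
Slfn2 (top) and Slfn5 (bottom) in 4 cell classes, as CPM by library size alone on the vertical axis, 1 point per library, with KO LPS cells split into Y-marked and Xist cells beside WT LPS Xist, KO vehicle Xist and WT vehicle Y-marked cells. Y-marked KO LPS cells lie below Xist KO LPS cells in all 8 panels and above both vehicle points.

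Cells of the 2 marks differed within the KO LPS libraries. T cell Slfn5 stood at 2128 and 2114 CPM (library size alone) in Xist cells and 623 and 750 CPM in Y-marked cells of KO LPS replicates 1 and 2, beside 1903 and 1856 CPM in Xist cells of the WT LPS libraries. Classical monocyte Slfn2 stood at 2696 and 2804 CPM in Xist cells and 1259 and 1342 CPM in Y-marked cells of the KO LPS libraries, beside 2040 and 2017 CPM in Xist cells of the WT LPS libraries. Alveolar macrophage Slfn2 stood at 953 and 942 CPM in Xist cells and 421 and 404 CPM in Y-marked cells of the KO LPS libraries, beside 868 and 862 CPM in WT LPS Xist cells. Y-marked cells were lower than Xist cells in both libraries for these 3, and the WT LPS values lay between them. Over 42 combinations of member and class with 30 cells of each mark, Y-marked cells were lower in both libraries in 30, higher in both in 4 and mixed in 8. Neutrophil Slfn4 was among the 4, at 3775 and 3898 CPM in Y-marked cells and 3039 and 3111 CPM in Xist cells of the KO LPS libraries. The same split was not counted over all genes, so nothing particular to the members is read from it. Of Y-marked alveolar macrophages in the KO LPS libraries, 36.2% and 41.6% sat in clusters that held most vehicle cells, against 0.208% and 1.80% of Xist cells. For T cells these shares were 26.4% and 37.5% against 1.66% and 1.29%, and for neutrophils and classical monocytes all were 0. What sets the 2 kinds of cells apart was not tested, and sex and animal cannot be told apart.

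Vehicle libraries of KO and WT mice, 1 each, were set side by side as values with counting intervals. Of 30 members by class with at least 100 UMIs on 1 side, the 95% counting interval of the KO over WT ratio lay above 1 for 9, below 1 for 5 and around 1 for 16. These ratios are by library size alone. The same split was not counted over all genes, so nothing particular to the members is read from it. Neutrophil Slfn5 was 152 CPM (128 to 179, library size alone) in KO vehicle and 270 CPM (235 to 308) in WT vehicle cells, a ratio of 0.564 (0.454 to 0.698). T cell Slfn5 was 89.9 CPM (81.8 to 98.7) in KO vehicle and 52.0 CPM (44.6 to 60.2) in WT vehicle cells, a ratio of 1.73 (1.45 to 2.07). The intervals cover counting error only, and the KO library is Xist-marked and the WT library Y-marked. The LPS response itself differed between genotypes in 10 of 72 tests, while 5.97% of all tests did. T cell Slfn5 rose by 4.46 in KO and 5.47 in WT libraries (difference -1.01 ± 0.17), and B cell Slfn8 by 2.43 in KO and 1.70 in WT libraries (difference 0.73 ± 0.16). Each vehicle side is 1 library, whose spread is taken from the LPS pairs.

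Interferon-induced effector genes moved with the members. Over the 9 blood cell classes, 53 of 54 tests of members rose and 1 fell, and all 162 tests of 18 effectors rose, against 29.3% of all tests that rose and 27.4% that fell. Class medians of the members ran from 2.32 in classical monocytes to 4.39 in neutrophils, and those of the effectors from 3.31 to 5.98 in the same classes. In neutrophils Ifit1, which binds viral RNA, rose by 7.84 ± 0.08, the GTPase gene Gbp2 by 7.0 ± 0.08 and the antiviral enzyme gene Rsad2 by 6.02 ± 0.07. Type I interferon signalling genes rose in 84 of 118 tests and fell in 16, and those with the smallest p in neutrophils were Irf7 (5.19 with TMM scaling and 3.63 by library size alone), Usp18 (5.82 and 4.26) and Stat2 (5.58 and 4.02). In neutrophils 11 of 13 signalling genes rose and 0 fell with TMM scaling, and 7 rose and 3 fell by library size alone. RNA-cleaving and RNA-directed restriction genes rose in 100 of 118 tests and fell in 11, and those with the smallest p in neutrophils were the ribonuclease gene Isg20 (6.24 with TMM scaling and 4.68 by library size alone), the kinase gene Eif2ak2 (4.56 and 3.0) and N4bp1 (2.84 and 1.28). Lymphocyte quiescence genes, listed because mouse T cells need Slfn2 to stay quiescent, rose in 33 of 117 tests and fell in 46. In neutrophils 8 of 13 of them rose with TMM scaling and 1 by library size alone, and Klf2 was 2.04 with TMM scaling and 0.48 by library size alone.

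KO LPS against WT LPS, the lists were counted over the same 9 classes. Of 54 tests of members 5 were higher and 24 lower, and of 162 tests of effectors 11 were higher and 96 lower, against 9.75% and 11.5% of all tests. Signalling genes were higher in 9 and lower in 42 of 118, restriction genes higher in 8 and lower in 43 of 118, and quiescence genes higher in 24 and lower in 17 of 117. The lowest class median was that of alveolar macrophages for both members (-0.79) and effectors (-0.81), and the highest was that of B cells for both (0.70 and 0.43). These counts are over all cells of both marks.

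The 7 protein-coding genes within 100000 bases of the locus rose in 17 of 37 tests and fell in 6, where 29.3% of all tests rose and 27.4% fell. Of the 17 rises 5 were those of Slfn3, one of the 7. In neutrophils the ubiquitin ligase gene Rffl rose by 2.57 ± 0.12 and Rad51d, a recombination repair gene, fell by 2.11 ± 0.37 on the log2 scale. Slfn3, an intermediate schlafen form next to Slfn4, stood at 24.9 and 21.8 CPM in KO LPS, 43.3 and 29.2 CPM in WT LPS, 1.88 CPM in KO vehicle and 0.808 CPM in WT vehicle T cells, a rise of 4.52 ± 0.34 (adjusted p = 1.9e-39). Slfn3 passed in 5 of 8 tests, all upward, and in none between KO LPS and WT LPS.

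Across the 72 sums of 12 classes and 6 libraries, the genes most like each member were found, with Oas3 shared by Slfn1, Slfn2 and Slfn8. Likeness was Pearson's r of log2(CPM + 1), given as a description because the sums share libraries and depth. Slfn4 was most like Il1r2 (0.949), Acod1 (0.940) and Lcn2 (0.939). Slfn5 was most like Rtp4 (0.925), Rnf213 (0.922) and Parp14 (0.909), and Slfn8 most like Zbp1 (0.903), Oas3 (0.901) and Epsti1 (0.850). Slfn9 was most like Casp4 (0.891), Cxcl10 (0.891) and Trafd1 (0.888), Slfn1 most like Oas3 (0.871), Oas2 (0.835) and Mefv (0.811), and Slfn2 most like Oas3 (0.855), Pim1 (0.844) and Otud5 (0.837). Among the members themselves r ran from 0.485 between Slfn1 and Slfn9 to 0.815 between Slfn2 and Slfn8.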

How the data were processed

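Single-cell RNA libraries of CD45-selected lung cells were deposited as filtered matrices of UMI counts per gene and cell. The authors made these counts with Cell Ranger 6.1.0 on mm10, and used Seurat 4.1.0 in R 4.1.3, per the submitters' processing notes. Barcodes with under 200 genes or over 10% mitochondrial UMIs were removed. Doublets were taken as the cells of each library with the highest Scrublet scores, their number set by an assumed rate (0.8% per 1000 cells). This removed 582 to 1194 cells a library, whereas Scrublet's own threshold called 0 to 2007. Then 12 clusters with markers of several classes were removed. Of each library's barcodes 16.2% to 23.4% were not kept, and 442 barcodes occurred in 2 or more libraries, at most 0.336% of the smaller one. Cells were clustered without the 6 schlafen genes (scanpy 1.11.5, 1911 variable genes, 30 components, 20 neighbours, leidenalg 0.10.2, resolution 3) and clusters were named from markers. UMIs were summed per library and class and tested with edgeR 4.0.16 (quasi-likelihood, TMM scaling, low-count filter, 1 term per group, 6 libraries, 2 residual degrees of freedom) over all genes of a class, with Benjamini-Hochberg adjustment within the class. The script was tested on simulated counts. SE is the log2 difference divided by the square root of F. Replicate LPS libraries differed beyond sampling noise in every class, with median chi-square over expectation of 1.23 to 7.73, and were kept as separate samples. Counting intervals (95%, exact) and the floor of 3 counts cover counting error only. Shares of cells were taken after thinning to 1000 UMIs, which leaves shallower cells out. Replicate numbers were checked for pairing, and were not used as such because of low correlations. Over genes, replicate 1 minus replicate 2 in KO LPS was correlated with the same difference in WT LPS. Pearson's r was -0.153 to 0.121 over 12 classes with 2 pairs each. Alternatives were DESeq2 1.42.0, library size alone, no low-count filter, at most 5% mitochondrial UMIs and doublets kept. Others were cells named one by one, the replicate block and leaving out each library. With doublets kept, all cells were clustered and named anew, and no cluster with markers of several classes was removed. Without a vehicle library, LPS minus vehicle is that of the other genotype alone. Sequences and starts came from RefSeq (GRCm38.p6) and GENCODE M21, in which 32235 of 32285 gene identifiers were found. The members and lists were chosen with earlier results of these data known. Genes named are the 6 members, up to 3 of each list with the smallest p in neutrophils, neighbours of the locus called in neutrophils, and the 3 genes most like each member with at least 50 CPM in some sum. One gene that this rule names is not reported here.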

Additional observations from a re-analysis of the deposited data

Results flagged for a closer look

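The LPS response of 10 combinations of gene and class differed between genotypes by a test of the difference itself (edgeR's quasi-likelihood test, adjusted p under 0.05), as log2 change in KO minus that in WT. Below 0 were Slfn2 in neutrophils (-0.3893, from 2.125 in KO and 2.514 in WT), Slfn8 in neutrophils (-0.8797, from 3.55 in KO and 4.43 in WT), Slfn8 in classical monocytes (-0.5828, from 1.952 in KO and 2.535 in WT) and Slfn9 in classical monocytes (-0.886, from 1.968 in KO and 2.854 in WT). In alveolar macrophages Slfn1 differed by -1.785 (1.791 in KO and 3.576 in WT), Slfn2 by -0.3942 (1.599 in KO and 1.993 in WT) and Slfn5 by -1.442 (3.068 in KO and 4.51 in WT). Slfn5 in T cells differed by -1.011 (4.463 in KO and 5.474 in WT). Above 0 were Slfn5 in B cells (0.4849, from 4.187 in KO and 3.702 in WT) and Slfn8 in B cells (0.7314, from 2.432 in KO and 1.701 in WT). Each value rests on 1 vehicle library per genotype and on TMM scaling. By library size alone the value of Slfn2 in neutrophils turned to above 0. The KO LPS libraries hold Xist and Y-marked cells, the WT vehicle library holds Y-marked cells, and the part of that mix in these values was not tested.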

How the results depend on the processing

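Of 2796 values of a member in a class under an alternative, 2680 kept their direction and their side of the threshold, 57 no longer passed, 44 newly passed and 15 turned. The rises after LPS numbered 68, and 64 to 71 under the alternatives. The falls numbered 1, and 0 with doublets kept, 0 with DESeq2 and 2 by library size alone. Calls higher in KO LPS than in WT LPS numbered 5, and 13 in cells with Xist and no Y-linked UMI, and calls lower in KO numbered 27, and 15 in those cells. Differences in response numbered 10, and 6 when cells were named one by one. Leaving out 1 library in turn gave 65 to 69 rises, 0 to 1 falls, 5 calls higher in KO, 22 to 27 lower in KO and 9 to 13 differences in response. With the replicate block there were 68 rises, 1 fall, 5 higher, 28 lower and 14 differences in response, and the numbers are not known to pair the samples. Values that turned were Slfn1 in neutrophils after LPS (-0.2246 by library size alone) and Slfn9 in alveolar macrophages after LPS (0.7378 with doublets kept). For KO minus WT in LPS, Xist cells turned Slfn2 (0.4224), Slfn5 (0.3198), Slfn8 (0.1795) and Slfn9 (0.3138) in classical monocytes, Slfn2 in alveolar macrophages (0.1674), dendritic cells (0.02009) and T cells (0.02863), and Slfn5 in T cells (0.09638). Keeping doublets and clustering anew turned Slfn5 in nonclassical monocytes (-0.1713) and NK cells (-0.3064), and Slfn1 (0.08487) and Slfn9 (-0.1939) in alveolar macrophages. Library size alone turned the difference in response of Slfn2 in neutrophils (0.1067). The cause was not tested. Epithelial rises of Slfn2, Slfn5 and Slfn9 did not pass without either vehicle library. Endothelial Slfn4 was -1.77 and did not pass between KO LPS and WT LPS without WT LPS replicate 1, and nonclassical monocyte Slfn4 was -0.92 and did not pass with DESeq2. Differences in response could not be fitted without a vehicle library or in Xist cells. Low counts limit epithelial cells most.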

Other observations

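Slfn14, a long schlafen form known from platelets, was almost confined to the untested platelet class. By library size alone it stood at 190 CPM (113 UMIs) and 142 CPM (29 UMIs) in KO LPS, 94.1 CPM (20 UMIs) and 141 CPM (37 UMIs) in WT LPS, 408 CPM (16 UMIs, 95% counting interval 233 to 662) in the KO vehicle and 53.6 CPM (3 UMIs, 11.1 to 157) in the WT vehicle library. The intervals of the vehicle libraries are wide and no test was made.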
